A study of Mus musculus with 2 samples.

Results

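The mitochondrially encoded complex I subunits are the 7 proteins of respiratory complex I whose genes lie on the mitochondrial genome: mt-Nd1, mt-Nd2, mt-Nd3, mt-Nd4, mt-Nd4l, mt-Nd5 and mt-Nd6. They were taken by name, as 7 of the 12744 genes listed for both libraries and 7 of the 13 mitochondrially encoded proteins. All 7 had counts in both libraries. They were chosen by measured values, namely the level per cell class, the ratio between the genotypes and a recurring gap between mt-Nd4 and mt-Nd4l, so these values are a description here and no test was made on them.

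The measurement was 3' single-cell RNA sequencing of hippocampal cells from mice aged 57 weeks, with unique molecular identifiers (UMIs) that count each captured molecule once. One library came from GlaKO mice, a Fabry disease model without a working gene for alpha-galactosidase A, the lysosomal enzyme that breaks down globotriaosylceramide, and the other from their wt littermates. The series title names anxiety-like behaviour and hippocampal activity as the subject. Both groups shared anaesthesia, saline perfusion, enzymatic dissociation, removal of debris and a 7-AAD sort for live cells, the number of animals is not listed, and with 1 library per genotype every difference below is one between 2 libraries.

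Complex I oxidises NADH at the start of the respiratory chain, passes the electrons to ubiquinone and pumps protons across the inner mitochondrial membrane. Its mitochondrially encoded subunits build the membrane arm that moves the protons, whereas the other subunits are encoded in the nucleus and imported. The choroid plexus epithelium, which secretes cerebrospinal fluid, and neurons both depend on oxidative metabolism, and mitochondrial transcripts are known to make up a sizeable part of the RNA of such cells.

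The pair on which the results turn lies head to tail on the plus strand of the mitochondrial genome. mt-Nd4l (ENSMUSG00000065947.3) occupies chrM:9877-10173 and mt-Nd4 (ENSMUSG00000064363.1) chrM:10167-11544 in GRCm38 (GENCODE M21), so that the last 7 bases of the former are the first 7 of the latter. They are shown, 5′ to 3′, with the shared bases in capitals, because these bases belong to 2 genes in the annotation. The 297 bases are the whole of mt-Nd4l, and the 60 bases are the start of mt-Nd4 (chrM:10167-10226).
mt-Nd4l: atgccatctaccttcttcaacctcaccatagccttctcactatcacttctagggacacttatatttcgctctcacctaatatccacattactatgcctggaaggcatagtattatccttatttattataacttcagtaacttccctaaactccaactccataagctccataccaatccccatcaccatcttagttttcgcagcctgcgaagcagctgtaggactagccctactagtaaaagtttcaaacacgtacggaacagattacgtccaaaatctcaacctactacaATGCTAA
mt-Nd4 start: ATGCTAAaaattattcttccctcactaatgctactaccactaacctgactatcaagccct
The capitals hold the stop codon of mt-Nd4l and the start codon of mt-Nd4, and both proteins are known to be made from 1 bicistronic messenger RNA. The longest run of A was 4 bases in mt-Nd4l and 7 in mt-Nd4, and over the other members it went from 3 in mt-Nd6 to 8 in mt-Nd2. The GC content of mt-Nd4l was 41.1%, the highest of the 13 genes, against 35.6% for mt-Nd4. Whether these features bear on the counts was not tested.

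In the annotation each of the 7 genes is a single coding exon. mt-Nd1 lies at chrM:2751-3707, mt-Nd2 at chrM:3914-4951, mt-Nd3 at chrM:9459-9806 and mt-Nd5 at chrM:11742-13565, all on the plus strand. mt-Nd6, at chrM:13552-14070, is the 1 member on the minus strand and overlaps the end of mt-Nd5 by 14 bases. How the authors counted reads in overlaps, and whether by strand, is not given in the sources used here, so the split of counts within each overlapping pair is uncertain.

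The libraries held 31929688 UMIs over 5443 barcodes (wt) and 29914106 UMIs over 4572 barcodes (GlaKO), with medians of 5054 and 6101 UMIs per barcode, and they shared 6 barcodes. After removal of called doublets 5418 and 4502 cells remained. Of the marker-defined classes, 7 had at least 100 cells per library and were compared, and the remaining cells fell into rarer classes. In each of the 7 classes and each library every listed marker of the class was highest in that class among the 7. Because the clusters were named from these same markers, this is no independent check of the names. Class names are read as "-like". Gla itself had 396 UMIs in wt (12.4 per 1000000 UMIs of the library, or CPM) and 219 in GlaKO (7.45 CPM), a log2 ratio of -0.74 (-0.99 to -0.50). Since 3' reads need not cover the altered stretch of Gla, its counts are no check of the genotype. Intervals here are 95% intervals for counting error alone, and they treat UMIs as independent, which makes them too narrow where a few cells hold many of a gene's UMIs.

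Together the 7 members made up 0.301 to 0.825% of the UMIs of a class in wt and 0.316 to 0.846% in GlaKO. Astrocytes, the glia that support synapses, had the highest summed level in both libraries, with 8253 CPM (8099 to 8410) in wt and 8461 CPM (8322 to 8602) in GlaKO. In wt, the choroid plexus epithelium (7421 CPM), oligodendrocyte precursors (6841), oligodendrocytes (6018) and neurons (5185) followed, and T cells (3654) and microglia, the resident macrophages of the brain (3006), were lowest. In GlaKO the order was astrocytes, oligodendrocyte precursors (6469), oligodendrocytes (5995), neurons (4936), choroid plexus epithelium (4823), T cells (3517) and microglia (3164). The other 6 classes kept their order, while the choroid plexus epithelium moved from below only the astrocytes to a level whose interval (4774 to 4874) overlapped that of neurons (4854 to 5020). Among the 1868 genes measured in every class, the level profiles closest to that of the sum were those of mt-Co3 and mt-Co2, subunits of cytochrome c oxidase, and mt-Cytb, of complex III (Pearson r of log2 CPM of 0.94, 0.94 and 0.92 over 14 class totals). Pnkd (0.91) came next. These points share libraries and class totals, and the relation is given as a description.

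Among the antiporter-like subunits, which form the proton channels of the membrane arm, mt-Nd4 had the highest CPM per kilobase of gene in each class of both libraries. In wt oligodendrocytes mt-Nd4 had 1096 CPM per kilobase, mt-Nd2 848 and mt-Nd5, the distal pump subunit, 199. The shortest member, mt-Nd4l, which lies in the membrane arm between other subunits, had 6044 on the same scale. Counts from 3' ends do not grow with gene length, so a short gene is placed high by this scale. mt-Nd6, the member on the other strand, was low on either scale, with 30.99 CPM in wt and 29.82 CPM in GlaKO oligodendrocytes.

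mt-Nd4l was lower in the GlaKO library in all 7 classes. In the choroid plexus epithelium it stood at 2212 CPM in wt and 807 CPM in GlaKO, and in oligodendrocytes, the myelin-forming cells, at 1795 and 993 CPM. Oligodendrocyte precursors had 2382 and 1244 CPM, microglia 806 and 488, and astrocytes 3012 and 1667. Neurons had 1732 and 917 CPM and T cells 970 and 496. The GlaKO level was the lower one in each class, by a log2 ratio of -1.45 (-1.49 to -1.42) in the choroid plexus epithelium and of -0.85 (-0.90 to -0.81) in oligodendrocytes. The log2 ratio was -0.94 in oligodendrocyte precursors, -0.73 in microglia, -0.85 in astrocytes, -0.92 in neurons and -0.97 in T cells.

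All 7 of these ratios passed a 1.5-fold difference. Among all genes with at least 100 UMIs in a class, 2.64% were lower by that much in the choroid plexus epithelium, 1.21% in oligodendrocytes, 1.25% in oligodendrocyte precursors, 1.52% in microglia, 1.2% in astrocytes, 1.62% in neurons and 1.59% in T cells. Of the 1868 genes measured in all classes, 5 (0.268%) were lower by at least 1.5-fold in all 7, among them mt-Nd4l, the nucleotide kinase gene Nme2, the glutathione transferase gene Gstp1 and Gm10076. No member was among the 2 genes (0.107%) higher by that much in all 7. Since the ratio chose the members, nothing further is read from these shares. In the choroid plexus epithelium 8 of 9436 genes had a lower ratio than mt-Nd4l, and in oligodendrocyte precursors and T cells 11 of 6882 and 11 of 2512. The count was 12 of 5519 in astrocytes, 29 of 7792 in neurons, 44 of 8622 in oligodendrocytes and 54 of 7128 in microglia.

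mt-Nd4 went the other way in 6 of the 7 classes. Its level was 1510 CPM in wt and 2125 CPM in GlaKO oligodendrocytes, 1621 and 2297 in oligodendrocyte precursors, and 736.5 and 1014 in microglia. Astrocytes had 1907 and 3079 CPM, neurons 1196 and 1678, and T cells 899 and 1123. GlaKO was the higher library in each of these, with log2 ratios of 0.49, 0.50, 0.46, 0.69, 0.49 and 0.32 in the same order and intervals above 0. The choroid plexus epithelium was the exception, with 1733 CPM in wt, 1636 CPM in GlaKO and a log2 ratio of -0.08 (-0.11 to -0.05), which turned to 0.20 when 5 depth parts with equal numbers of cells were given equal weight. Only the astrocyte ratio passed 1.5-fold. The share of all genes higher by that much was 2.5% in astrocytes, 5.15% in the choroid plexus epithelium, 1.65% in oligodendrocytes, 2.19% in oligodendrocyte precursors, 2.2% in microglia, 2.36% in neurons and 6.13% in T cells.

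**Figure D1:**
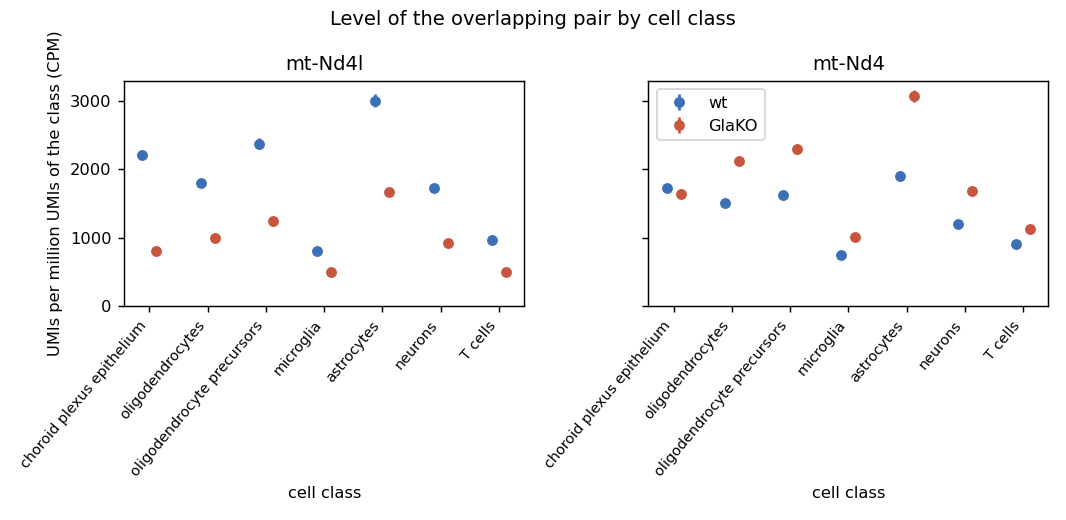
Level of mt-Nd4l (left) and mt-Nd4 (right) in CPM by cell class, wt in blue and GlaKO in red, with exact Poisson 95% intervals as bars (often smaller than the point). For mt-Nd4l the GlaKO point is below the wt point in 7 of 7 classes, and for mt-Nd4 it is above it in 6 of 7.

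The balance within the pair therefore differed between the libraries in every class. In wt the number of mt-Nd4l UMIs per mt-Nd4 UMI was 1.28 in the choroid plexus epithelium, 1.19 in oligodendrocytes, 1.47 in oligodendrocyte precursors, 1.10 in microglia, 1.58 in astrocytes, 1.45 in neurons and 1.08 in T cells. In GlaKO it was 0.494, 0.467, 0.542, 0.481, 0.542, 0.547 and 0.442 in the same classes. The lowest wt class (1.08) lay above the highest GlaKO class (0.547), and mt-Nd4l had more UMIs than mt-Nd4 in 7 of 7 wt classes and fewer in 7 of 7 GlaKO classes. In wt T cells the interval of the quotient (0.970 to 1.2) included equal numbers.

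Expressed as the log2 ratio of these quotients, the gap was smallest in microglia (-1.19, -1.30 to -1.07) and widest in astrocytes (-1.54, -1.64 to -1.45), with a median of -1.37 over classes. Over all cells the quotient was 1.29 (1.27 to 1.30) in wt and 0.495 (0.488 to 0.503) in GlaKO, a gap of -1.38 (-1.40 to -1.35). T cells had the lowest quotient in both libraries, and oligodendrocyte precursors were second to the highest class in both. Astrocytes were highest in wt and neurons in GlaKO.

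By cluster, the gap was below 0 in 23 of 23, and its interval lay below 0 in 22. The exception was a cluster of 16 wt and 3 GlaKO cells assigned to the choroid plexus epithelium (-0.24, -1.18 to 0.70). Astrocytes, T cells and each of the 5 rarer classes formed a single cluster, whose value is that of the class. The 5 rarer classes gave -1.06 in border macrophages, -1.25 in endothelial cells, -1.70 in pericytes and mural cells, -1.22 in B cells and -1.53 in ependymal cells. When each of the 7 classes was split into 5 parts by UMI depth, the gap was below 0 in 35 of 35 parts, from -1.85 to -0.84.

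Single cells were described where they held at least 20 UMIs of the pair, which were 38.8% of wt and 33.9% of GlaKO cells. Their class mix differed, with 1391 of 2103 wt but 342 of 1526 GlaKO cells from the choroid plexus epithelium. Over these cells mt-Nd4l made up a median of 56.4% of the pair in wt and 33.3% in GlaKO. Within the choroid plexus epithelium the medians were 56.4% and 33.1%, and in oligodendrocytes 54.05% and 31.7%. In wt 71.2% of these cells held more mt-Nd4l than mt-Nd4, and in GlaKO 3.41% did, or 52 cells. The SD between cells was 10.1 percentage points in wt and 9.69 in GlaKO, against 8.72 and 8.66 for binomial counting at the same depths. In bins of 10 percentage points each library as a whole had 1 mode; by class, wt astrocytes (120 cells) and GlaKO T cells (14 cells) had 2. A mixture of cells was not tested. Cells of 1 library are not replicates, and the spread between animals is not in these values.

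**Figure D2:**
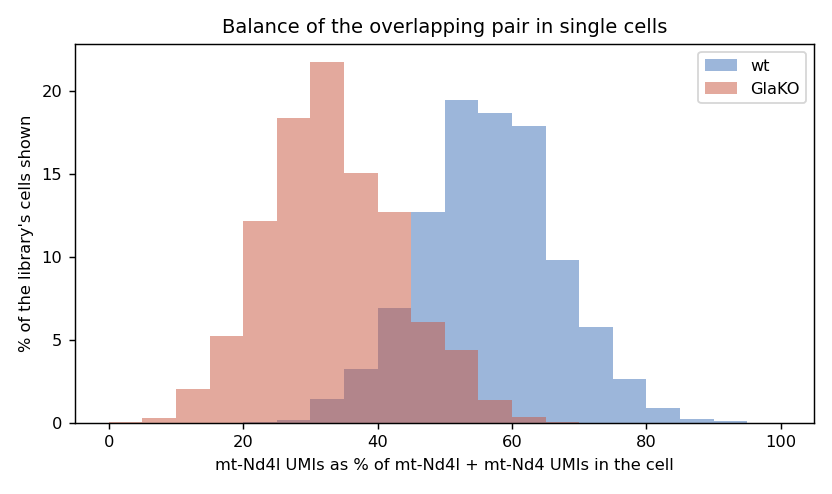
Share of mt-Nd4l in the UMIs of the pair, in percent, over single cells with at least 20 UMIs of the pair (2103 wt cells in blue, 1526 GlaKO cells in red), as the percent of each library's cells per bin. The wt cells centre on 56.4% and the GlaKO cells on 33.3%, with overlapping tails.

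Outside the choroid plexus epithelium the sum of both genes differed less between the libraries than either gene. mt-Nd4l and mt-Nd4 together had 3305 CPM in wt and 3118 CPM in GlaKO oligodendrocytes (log2 ratio -0.08), 4919 and 4747 in astrocytes (-0.05), and 1543 and 1501 in microglia (-0.04). In oligodendrocyte precursors, neurons and T cells the ratio of the sum was -0.18, -0.17 and -0.21, and in the choroid plexus epithelium -0.69 (3945 and 2443 CPM). As a share of the 13 mitochondrially encoded messenger RNAs, the ratio of the sum was between -0.16 in T cells and -0.02 in astrocytes over the 7 classes. On that scale mt-Nd4l was at -0.92 to -0.78 and mt-Nd4 at 0.37 to 0.72.

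All 78 pairs of the 13 genes (66 in T cells, where mt-Nd6 was not measured) were ranked by the size of the change in their quotient. mt-Nd4l with mt-Nd4 ranked 1 in each of the 7 classes. Because the members were chosen for this gap in the same libraries, the rank is a description and lends it no support. The next pair held mt-Nd4l in every class, with mt-Nd6, mt-Nd2 or mt-Atp8, and its size was 1.02 to 1.32. That pair in the choroid plexus epithelium, mt-Nd4l with mt-Nd6 (-1.32, -1.51 to -1.13), overlapped the named pair (-1.37, -1.42 to -1.32) in its interval. Among the 45 pairs that hold none of mt-Nd4l, mt-Nd4 and mt-Nd6, the median size was 0.08 to 0.15 over classes and the largest was 0.47, in the choroid plexus epithelium. mt-Atp8 and mt-Atp6, subunits of ATP synthase, also overlap, by 43 bases, and their gap was 0.13 to 0.36. Further overlaps are those of mt-Nd5 with mt-Nd6 (14 bases, opposite strands) and of mt-Atp6 with mt-Co3 (1 base). In the choroid plexus epithelium the log2 ratio was -0.78 for mt-Nd5 and -0.14 for mt-Nd6.

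**Figure D3:**
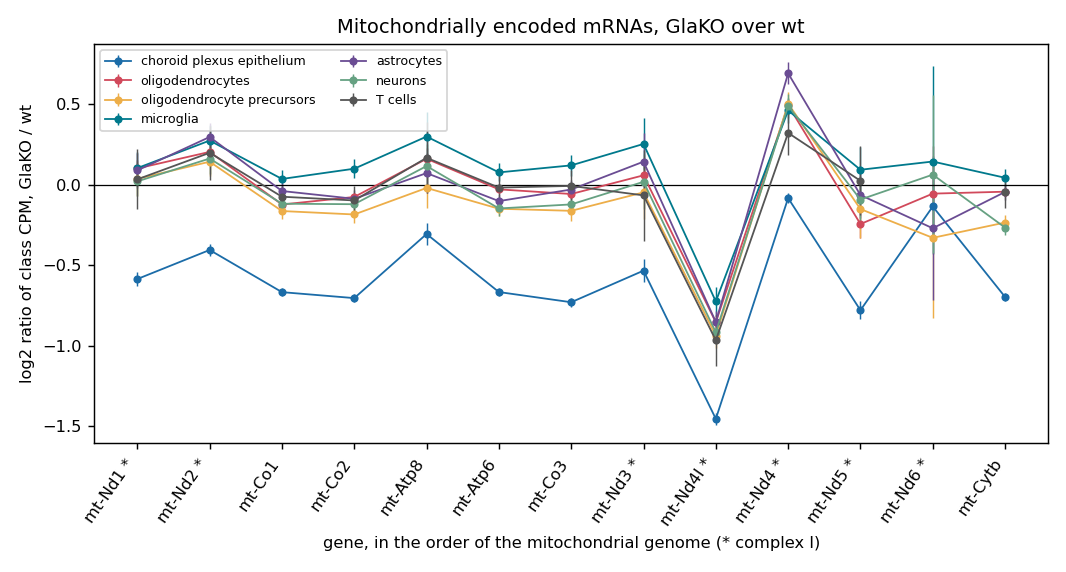
Log2 ratio of class CPM, GlaKO over wt, for the 13 mitochondrially encoded messenger RNAs in genome order (complex I members starred), 1 line per cell class with 95% counting intervals as bars. Every line has its lowest point at mt-Nd4l and its highest at mt-Nd4, and the choroid plexus epithelium lies below the other classes except at mt-Nd6.

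mt-Nd2, an antiporter-like subunit, was higher in GlaKO outside the choroid plexus epithelium. It had 880 CPM in wt and 1013 CPM in GlaKO oligodendrocytes, 518 and 627 in microglia, and 1408 and 1729 in astrocytes. The log2 ratio was 0.14 to 0.30 in these and the remaining 3 classes, with 6 of 6 intervals above 0 and none past 1.5-fold. In the choroid plexus epithelium mt-Nd2 had 1217 CPM in wt and 919 CPM in GlaKO (-0.41). As a share of the mitochondrial messenger RNAs it was higher in all 7 classes (0.20 to 0.33).

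mt-Nd1, at the junction of the membrane arm with the matrix arm, and mt-Nd3, a small subunit beside it, differed little outside the choroid plexus epithelium. mt-Nd1 had 924 CPM in wt and 991 CPM in GlaKO oligodendrocytes and 948 and 1008 CPM in astrocytes, and its log2 ratio was 0.02 to 0.10 over the 6 classes. mt-Nd3 had 196 CPM in wt and 233 CPM in GlaKO microglia (0.25, 0.10 to 0.41), and elsewhere outside the choroid plexus epithelium the interval of its ratio included 0. In the choroid plexus epithelium mt-Nd1 stood at 1071 and 714 CPM (-0.59) and mt-Nd3 at 380 and 263 CPM (-0.53), just past and just short of 1.5-fold.

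mt-Nd5 was the member with the second lowest ratio in the choroid plexus epithelium, with 761 CPM in wt and 443 CPM in GlaKO (-0.78, -0.84 to -0.72). In oligodendrocytes it had 363 and 306 CPM (-0.24, -0.33 to -0.16), and in the other 5 classes the interval included 0. Among wt classes its level ranged from 250.0 CPM in microglia to the 761 CPM of the choroid plexus epithelium. mt-Nd6 had 836 wt and 309 GlaKO UMIs in the choroid plexus epithelium (45.78 and 41.67 CPM, -0.14, -0.33 to 0.05). Its interval included 0 in 6 of 6 classes, and with 10 wt and 32 GlaKO UMIs in T cells it was not compared there.

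The 7 members together differed the most between the libraries in the choroid plexus epithelium. Their sum was 7421 CPM in wt and 4823 CPM in GlaKO, a log2 ratio of -0.62 (-0.64 to -0.60), and 7 of 7 members had a ratio below 0, 3 of them past 1.5-fold (mt-Nd4l, mt-Nd5 and mt-Nd1; 2.64% of all genes there). In the other 6 classes the ratio of the sum was -0.08 to 0.07. Its interval lay below 0 in oligodendrocyte precursors (-0.08, -0.12 to -0.04) and neurons (-0.07, -0.11 to -0.03), above 0 in microglia (0.07, 0.03 to 0.11), and included 0 in oligodendrocytes, astrocytes and T cells. The other 6 mitochondrial messenger RNAs were lower there as well (17297 and 10793 CPM, -0.68), so that complex I kept its share of the mitochondrial messenger RNA at 30.02% in wt and 30.9% in GlaKO.

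Several other values also differed between the libraries in this class, and not only there. Its median depth was 5867 UMIs per cell in wt and 8612 in GlaKO, and its 13 heat-shock genes summed to 7960 CPM in wt and 10753 CPM in GlaKO, with all 13 higher in GlaKO. Hspa1b (10.24 and 39.38 CPM, log2 ratio 1.94) and Hspa1a (15.61 and 48.82 CPM, 1.65) differed the most and Hspa5 (0.13) and Hspe1 (0.37) the least of them. The 9 listed choroid plexus markers were all detected in both libraries and summed to 15733 and 13616 CPM. All 15 measured immediate-early genes, which respond to stimulation and to dissociation, were also higher in GlaKO in this class. Their median log2 ratio was 0.39, beside 0.06 for all genes, and 3 passed 1.5-fold (5.15% of all genes there). Median depth was higher in GlaKO in the other classes too. Heat-shock genes were higher in 12 of 13 in microglia and 10 of 12 in oligodendrocytes, but in 5 of 11 in T cells. Immediate-early genes were higher in 9 of 9 in astrocytes (median 0.43) and 17 of 18 in microglia, but in 3 of 18 in oligodendrocytes and 3 of 17 in neurons. Outside the class the choroid plexus markers summed to 237 CPM in wt and 85.4 CPM in GlaKO microglia, 293 and 139 in astrocytes and 198 and 111 in T cells. They were closer between the libraries in oligodendrocyte precursors (667 and 654 CPM) and in oligodendrocytes (2265 and 2253 CPM), and higher in GlaKO in neurons (353 and 413 CPM). Between 7 and 9 of the 9 markers were detected in each of these. Whether the other classes make some of these markers themselves was not tested, so the sums are not read as carried-over choroid plexus RNA. The part of depth, heat-shock genes, immediate-early genes and choroid plexus markers in other cells in the result was not tested.

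The deepest choroid plexus cells had a lower complex I share than the shallowest in both libraries. When the cells of both libraries were cut into 5 equal parts by depth, the share in wt was 0.963, 1.03, 0.858, 0.705 and 0.526% from shallow to deep, and in GlaKO 0.859, 0.890, 0.683, 0.439 and 0.381%. It was highest in the next to shallowest part of each library. The log2 ratio of the sum within these parts was -0.17, -0.21, -0.33, -0.68 and -0.46 from shallow to deep. With the parts weighted equally the ratio of the sum was -0.33, that of mt-Nd5 -0.43 and that of mt-Nd1 -0.28, none of them past 1.5-fold, while mt-Nd4l stood at -1.14.

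**Figure D4:**
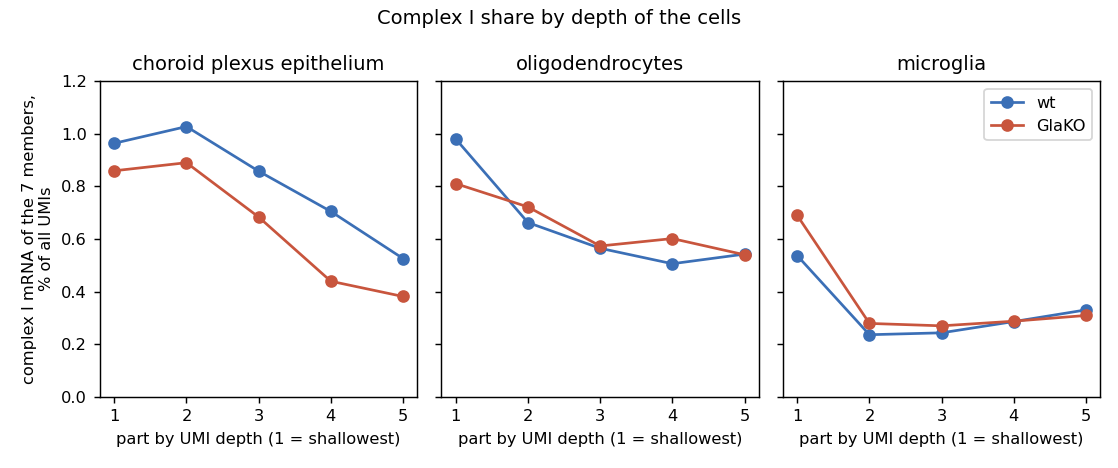
Share of the 7 members in all UMIs, in percent, in 5 parts by UMI depth (1 is the shallowest) in 3 classes, wt in blue and GlaKO in red. In the choroid plexus epithelium the GlaKO line lies below the wt line in 5 of 5 parts, and in oligodendrocytes and microglia the lines cross.

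The clusters within the choroid plexus epithelium did not all go the same way. Cluster 0 held 28.2% of the wt and 37.4% of the GlaKO cells of the class and had a log2 ratio of the summed members of -0.37. Cluster 3 (27.5 and 18.7% of cells) had -0.52 and cluster 7 (19.9 and 15.6%) -0.66. Cluster 4 (23.8 and 27.9%) had the opposite sign, with 0.142% of UMIs from complex I in wt and 0.197% in GlaKO (0.47, 0.42 to 0.53). Cluster 4 had no choroid plexus marker among its 10 leading genes, which began with Cox8b, Krt18 and Krt8, and was named from 9 detected markers. It also had the lowest mitochondrial share of the larger clusters of the class (0.476 and 0.646%). The gap within the pair was nevertheless similar in clusters 0, 3, 4 and 7, at -1.45, -1.39, -1.28 and -1.34.

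The nuclear subunits of the same complex had ratios near 0 in the choroid plexus epithelium. Of 38 listed, 36 were measured there, 31 with a ratio below 0 (18 with the interval below 0) and 5 above 0 (3 with the interval above 0), with a median log2 ratio of -0.05 and none past 1.5-fold, beside 0.06 for all 9436 genes. The lowest were Ndufs8 (455 CPM in wt and 403 in GlaKO, -0.17), an iron-sulfur subunit, and Ndufb9 (1001 and 898 CPM, -0.16), and the highest Ndufb4 (400 and 559 CPM, 0.48) and Ndufa12 (862 and 907 CPM, 0.07). In the other 6 classes the median over nuclear subunits was -0.17 to -0.05, beside -0.02 to 0.06 for all genes, and none passed 1.5-fold. Over the 7 classes Ndufs4 (median -0.19) and Ndufa1 (-0.19) were lowest, and Ndufv2 (0.02) and Ndufa3 (0.00) highest.

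**Figure D5:**
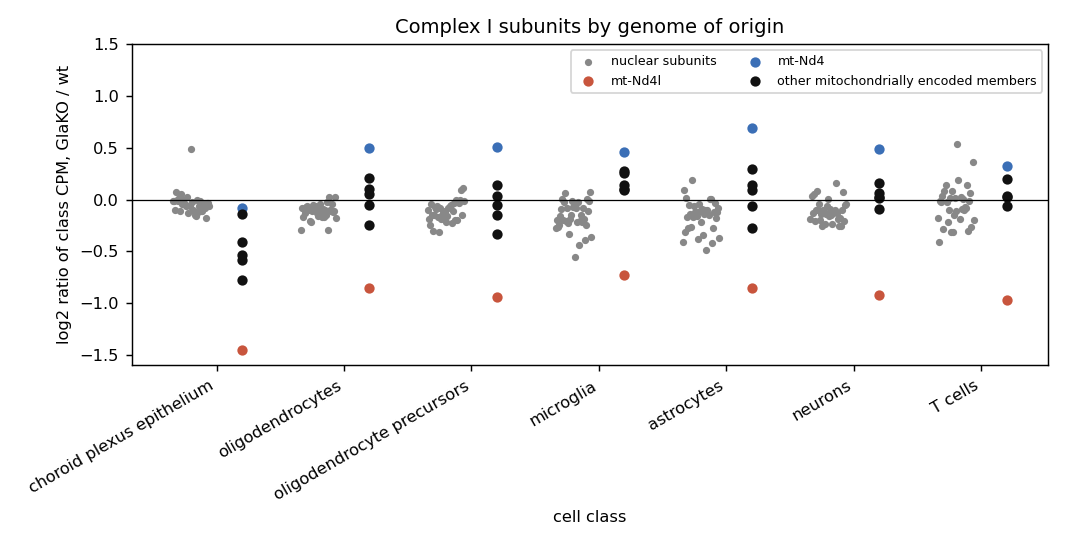
Log2 ratio of class CPM, GlaKO over wt, of nuclear complex I subunits (grey), mt-Nd4l (red), mt-Nd4 (blue) and the other mitochondrially encoded members (black) by cell class. In every class mt-Nd4l lies below all nuclear subunits, and in the choroid plexus epithelium 5 members lie below all of them.

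Assembly factors, which help to put the complex together, were lowly expressed. In the choroid plexus epithelium 16 of 17 were measured, 9 with a ratio above 0 and 7 below (median 0.09), none past 1.5-fold. Acad9 (30.01 CPM in wt and 22.12 in GlaKO, -0.44) and Foxred1 (23.0 and 17.94 CPM, -0.36) were lowest, and Ecsit (27.71 and 34.12 CPM, 0.30) and Ndufaf4 (74.04 and 86.99 CPM, 0.23) highest. In the other 6 classes 2 to 14 assembly factors were measured, with medians of -0.16 to 0.06, and the 2 measured in every class, Ndufaf8 and Dmac1, had medians of -0.02 and 0.03. Of the 24 listed genes for mitochondrial transcription, RNA processing and RNA stability, 21 were measured there, 13 above and 8 below 0 (median 0.11), none past 1.5-fold. Lrpprc, which stabilises mitochondrial messenger RNAs, had 60.13 CPM in wt and 50.03 CPM in GlaKO (-0.27, -0.44 to -0.09), and Rpusd4 had a ratio of -0.34 whose interval included 0. Fastkd2 (0.24) and Angel2 (0.23) were highest, and both intervals included 0. In the other classes 1 to 18 of these genes reached the minimum count, with 1 gene in T cells (Hsd17b10, -0.56). Chosen after their values were seen are the genes of these lists past 1.5-fold outside the choroid plexus epithelium. Slirp, a partner of Lrpprc, was 1 of 6 measured in astrocytes (125.9 CPM in wt and 76.23 in GlaKO, -0.72, -1.07 to -0.38). Among assembly factors, Foxred1 was 1 of 9 measured in microglia (55 wt and 70 GlaKO UMIs, 22.54 and 14.87 CPM, -0.60, -1.13 to -0.06). Timmdc1 was 1 of 14 in neurons (55 and 51 UMIs, 28.16 and 18.48 CPM, -0.61, -1.19 to -0.03). Of all genes, 1.2% in astrocytes, 1.52% in microglia and 1.62% in neurons were lower by that much.

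By the smallest root mean square distance of the log2 ratio over the 7 classes among the 1868 genes, those most like mt-Nd4l included Gstp1 (distance 0.25), Grcc10 (0.39), Ccdc85b (0.46) and Gm10076 (0.50). Their median log2 ratios were -0.86, -0.63, -0.74 and -1.37, beside -0.92 for mt-Nd4l. Those most like mt-Nd4 were Rsrc1 (0.19), the ribosomal protein gene Rpl23a (0.24), Lars2, the mitochondrial leucyl-tRNA synthetase (0.24), Rdx (0.25) and Eif4g3 (0.26). Likeness here is of values between the same 2 libraries only.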

How the data were processed

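Per gene and barcode, the authors deposited raw UMI counts of 1 wt and 1 GlaKO library. Build mm10, Seurat 4, R 4.1.3 and Cell Ranger 6.0.1 are listed in the submitters' processing notes. Another Cell Ranger version is named there for demultiplexing. Of the annotation, the cell filters and the handling of overlapping genes, nothing is given in the sources used here. No barcode had under 500 genes or over 20% mitochondrial UMIs.

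Scrublet in scanpy 1.11.5 marked 25 wt (0.459%) and 70 GlaKO (1.53%) barcodes, which were removed; at under 0.5% it cannot be said to have worked in wt. Libraries were clustered together (2000 variable genes, 30 components, 15 neighbours, Leiden resolution 1.0), and clusters were named from marker lists. Left out of the variable genes were the mitochondrial, the listed heat-shock and immediate-early, the ribosomal protein and the haemoglobin genes. Alas2, Xist, Tsix and the Y-linked Ddx3y, Eif2s3y, Kdm5d and Uty were also left out. Summed UMIs of each class and library were scaled to CPM of that class. A gene was compared with at least 100 UMIs over both libraries. Ratios have exact conditional and the pair gap log-odds 95% intervals, levels exact Poisson intervals; no p-value was computed, because there is 1 library per genotype. The scripts were tested on simulated data. edgeR 4.0.16 served only for TMM scaling, 1 of 17 alternatives; a denominator of mitochondrial messenger RNA was added after seeing the data. Positions and sequences come from GENCODE M21 (GRCm38).

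Members, gene lists and the cell type markers were chosen with earlier results of these data known. Named genes are all 13 mitochondrially encoded proteins, the 2 highest and 2 lowest of each list in the choroid plexus epithelium and over the class medians, and the 5 genes most like mt-Nd4l, mt-Nd4 and the summed level. Genes lower in every class are named in addition, chosen after their values were seen. Some genes that these rules name are not reported here.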

Additional observations from a re-analysis of the deposited data

Results flagged for a closer look

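Ratios of opposite sign in different classes were marked for a closer look; the differences were not tested, since there is 1 library per genotype. The log2 ratio of the 7 members summed differed by 0.696 between choroid plexus epithelium (-0.62) and microglia (0.07). The same classes differed by 0.689 for mt-Nd1 (-0.59 and 0.10) and by 0.787 for mt-Nd3 (-0.53 and 0.25). Choroid plexus epithelium and astrocytes differed by 0.702 for mt-Nd2 (-0.41 and 0.30) and by 0.775 for mt-Nd4 (-0.08 and 0.69).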

How the results depend on the processing

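No paired analysis was possible because each genotype has 1 library. The gap between mt-Nd4l and mt-Nd4 was below 0 in 119 of 119 values (17 alternative settings in 7 classes), from -1.55 to -1.18. Settings of scaling or minimum count cannot change the gap, nor can cluster weights in a class of a single cluster. Part of these 119 values therefore repeat the main ones. mt-Nd4l stayed past 1.5-fold in all 119, from -1.52 to -0.64. The median gap of -1.37 was -1.47 with cells thinned to 1000 UMIs. The median ratio of the summed members, -0.06, became 0.023 with the clusters of a class weighted equally and 0.043 with mitochondrial messenger RNA as the denominator. With that denominator the choroid plexus epithelium also turned to 0.077 for mt-Nd1 and 0.041 for the sum. Its sum went from -0.69 with TMM scaling to -0.33 with depth parts weighted equally, and was -0.43 without cells over 5% mitochondrial UMIs (456 wt and 54 GlaKO cells), where mt-Nd4 was 0.12. With no doublet removal a keratin-rich cluster of 488 wt and 138 GlaKO cells left this class. The marker rule named it erythrocytes from 3 detected markers, although Krt18 and Krt8 led its genes. Depth limits mt-Nd6 in particular.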
